A study of Mus musculus with 12 samples.

Results

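The set holds 10 genes that are markers or products of mast cells and basophils, the cells of allergic inflammation that carry the high-affinity IgE receptor and store histamine and proteases in granules. They are the receptors Il1rl1, Fcer1a and Fcer1g, the histamine-forming enzyme Hdc, the transporter Slc45a3 and the granule proteases Cpa3, Prss34, Mcpt8, Tpsb2 and Gzmb. They were taken by name from the deposited gene tables, where 10 of 10 are listed among 24411 genes. Of the 10, 9 passed the low-count filter together with 13755 genes in all, and Tpsb2 did not.

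The RNA came from bone marrow of femora and tibiae gated as lineage-negative and cKit-positive, a gate that holds stem cells and progenitors and also admits cKit-positive mast cell progenitors. The 4 groups differ in the donor genotype, always on a CD45.2(+) background: Mx1-Cre with both Sf3b1-K700E and Inv(3) (the double group), with Inv(3) alone (the inv(3) group), with Sf3b1-K700E alone (the Sf3b1 K700E group) or with neither (control). Each group has 3 libraries. Mx1-Cre is a recombinase driven by an interferon-responsive promoter and switched on with pIpC, and control donors carry it too, so every group received Cre and pIpC. Donor marrow on the C57BL/6 strain was mixed with wild-type CD45.1 marrow and given to lethally irradiated CD45.1(+) CD45.2(-) mice, which got 3 pIpC doses of 20 mg/kg from week 4 and gave the marrow 6 months after that. The Sf3b1 K700E mutation is heterozygous and lies in a splicing factor. The inv(3) rearrangement puts a GATA2 enhancer beside EVI1, called Mecom in mice. The labels give no ages or sexes, and they name no sort of donor cells from support or host cells, so a share of wild-type RNA in the libraries is possible. The labels do not say that replicates are separate mice, and the p-values measure only the spread between these samples.

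Library totals ran from 73074797 to 86555638 expected counts. The gate is visible in the data, since Kit averaged 457 CPM (counts scaled to library size) in the double group, 437 in inv(3), 429 in Sf3b1 K700E and 455 in control. The inv(3) libraries stand apart in sex-linked RNA. They had 1790 to 2100 CPM of Xist and 4 to 8 counts of 4 Y-linked genes each, against 23.2 to 40.5 CPM and 22380 to 23788 counts in double, 77.1 to 210 CPM and 19200 to 25380 counts in Sf3b1 K700E, and 24.0 to 39.9 CPM and 20343 to 20418 counts in control. Genotype and this difference cannot be told apart wherever the inv(3) group is compared with another. The double, Sf3b1 K700E and control groups all had Y-linked RNA. Among these groups every Sf3b1 K700E library had more Xist than any double or control library, and genotype and this smaller difference cannot be told apart either.

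Mast cells and basophils arise from progenitors that express Gata2 and Gata1, and both lineages bind IgE through a receptor made of an alpha chain (Fcer1a), a beta chain (Ms4a2) and a gamma chain dimer (Fcer1g). IL-33 reaches them through the receptor ST2, the product of Il1rl1, which pairs with Il1rap. Their granules hold histamine, made from histidine by Hdc and packed by the vesicle transporter Slc18a2, and lineage-typical proteases: Mcpt8 and Prss34 mark mouse basophils, Cpa3 is shared by both lineages, and tryptases and chymases such as Tpsb2 and Cma1 mark mature mast cells.

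The marker lists of both lineages were present in part. Of 12 mast cell markers 8 were tested, and 5 of the 12 belong to the set. Together the 12 summed to 608 to 650 CPM in double and 562 to 629 in inv(3), against 906 to 921 in Sf3b1 K700E and 911 to 941 in control, a sum in which Kit is the largest part. The 8 basophil markers, 4 of them members, summed to 142 to 156 CPM in double and 184 to 198 in inv(3), against 399 to 468 in Sf3b1 K700E and 455 to 469 in control. The member Hdc is the largest part of the basophil sums, so they are not separate from the results of the set. Cd200r3, also on this list, went the other way, at 16.7 CPM in double and 10.5 in inv(3), against 0.84 in Sf3b1 K700E and 0.599 in control.

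Promoter sequences are shown for a receptor, for a pair of proteases that fell and for the protease that rose, with their GATA words, since GATA factors are known regulators of these lineages. Each line holds the 250 bases before a transcription start listed by RefSeq on GRCm38.p6, 5′ to 3′ on the gene's strand. A listed start need not be the outermost, and both Il1rl1 windows and part of the Cpa3 window lie within the span of the gene. For 8 of the 11 windows of the set, the next 20 bases were found near the start of a GENCODE transcript of the gene. They need not be its first bases. Capitals mark GATA hexamers on either strand, which are AGATAA, its variant AGATAG, likewise TGATAA, or else the variant TGATAG. Il1rl1 has an upstream and a downstream start in the table (chr1:40429320-40429569 and chr1:40439379-40439628, both plus strand). The others are Cpa3 (chr3:20242182-20242431, minus), Prss34 (chr17:25298144-25298393, plus) and, as the gene that was higher, Gzmb (chr14:56262335-56262584, minus).
Il1rl1 upstream start: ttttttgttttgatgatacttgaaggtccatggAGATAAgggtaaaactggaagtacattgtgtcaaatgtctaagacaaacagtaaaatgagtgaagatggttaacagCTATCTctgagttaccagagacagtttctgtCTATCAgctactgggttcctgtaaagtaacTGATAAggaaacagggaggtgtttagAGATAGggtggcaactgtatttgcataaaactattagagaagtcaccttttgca
Il1rl1 downstream start: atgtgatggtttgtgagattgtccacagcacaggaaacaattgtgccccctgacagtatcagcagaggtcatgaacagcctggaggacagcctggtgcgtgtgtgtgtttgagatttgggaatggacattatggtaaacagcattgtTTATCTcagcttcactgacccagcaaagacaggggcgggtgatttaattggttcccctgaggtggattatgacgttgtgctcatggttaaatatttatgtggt
Cpa3: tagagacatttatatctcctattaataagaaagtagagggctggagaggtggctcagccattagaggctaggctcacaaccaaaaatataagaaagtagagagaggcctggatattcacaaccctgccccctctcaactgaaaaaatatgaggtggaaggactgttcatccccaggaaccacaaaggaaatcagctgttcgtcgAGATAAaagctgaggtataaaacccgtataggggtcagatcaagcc
Prss34: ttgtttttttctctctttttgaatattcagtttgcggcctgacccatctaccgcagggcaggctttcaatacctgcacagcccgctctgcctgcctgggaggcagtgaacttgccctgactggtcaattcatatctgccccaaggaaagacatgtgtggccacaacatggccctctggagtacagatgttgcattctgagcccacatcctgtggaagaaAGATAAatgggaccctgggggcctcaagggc
Gzmb: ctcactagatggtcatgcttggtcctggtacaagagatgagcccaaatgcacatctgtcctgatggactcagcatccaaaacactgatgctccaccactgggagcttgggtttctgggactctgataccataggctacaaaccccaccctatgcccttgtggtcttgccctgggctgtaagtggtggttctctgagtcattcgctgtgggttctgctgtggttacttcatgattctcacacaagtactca

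The upstream Il1rl1 window holds 5 such hexamers, at 217, 141, 110, 80 and 54 bases before the start, and the downstream window holds 1. Cpa3 and Prss34 hold 1 each, at 46 and 31 bases before the start, and the Gzmb window holds none. The windows of Fcer1g and Mcpt8, which were also lower with inv(3), hold none either. For Slc45a3, also lower, the upstream window holds none and the downstream window holds 1. Fcer1a and Hdc hold 1 each. At least 1 hexamer occurs in 26.5% of 32851 promoter windows of the same length, and at least 5 occur in 0.0426% of them (14 windows). The 9 genes of the set with an entry have 11 windows, of which 7 hold a GATA hexamer. The RUNX word TGTGGT, on either strand, occurs in 5 of the 11 windows and in 14% of all windows. The words CATGTG and CACGTG, to which MITF can bind, occur in 2 of the 11 windows and in 17.6% of all windows. These are matches of letters and do not show binding.

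The receptors come first. Il1rl1 (chromosome 1, 40404864 to 40465418, plus strand, GRCm38.p6), which encodes the IL-33 receptor ST2, had 0.22, 0.24 and 0.29 TPM in the double group and 0.51, 0.38 and 0.49 TPM in inv(3), against 11.41, 11 and 10.56 TPM in Sf3b1 K700E and 6.87, 6.89 and 7.36 TPM in control. TPM is the share of transcripts, a level corrected for transcript length that has the same total in every library. No group's libraries overlapped those of another group. By edgeR's quasi-likelihood test on counts, the log2 change of Il1rl1 in inv(3) against control was -3.83 ± 0.11 (SE, n = 3 per group, adjusted p = 7.5e-10), which is 14.2-fold lower. Set against Sf3b1 K700E, the double group changed by -5.41 ± 0.12 (SE, adjusted p = 2.7e-10), which is 42.4-fold lower. Summed over 3 libraries it had 156 expected counts in double, 302 in inv(3), 7023 in Sf3b1 K700E and 4427 in control, so the level stayed measurable in every library.

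The change of Il1rl1 with each allele depended on the other. Sf3b1 K700E against control was higher by 0.59 ± 0.09 (SE, adjusted p = 0.0065), and the double group against inv(3) was lower, at -0.99 ± 0.13 (adjusted p = 8e-04). The interaction, which is the inv(3) effect with Sf3b1 K700E minus that without it, was -1.57 ± 0.16 (adjusted p = 0.00061). Il1rl1 is known to give membrane-bound and soluble forms of ST2 from different transcripts. Its abundance-weighted effective length was 4423 to 4550 bases in double and 4499 to 4614 in inv(3), against 4600 to 4650 in Sf3b1 K700E and 4563 to 4636 in control. GENCODE transcripts with a RefSeq match have 5302, 2661 and 1216 bases, and in every library the weighted length lay closest to the longest. The length differences between groups were not tested, and the double group's values rest on 49 to 58 counts a library.

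The 3 chains of the IgE receptor did not move alike. The beta chain gene Ms4a2, which is outside the set, had 5.34 to 6.19 TPM in double and 5.75 to 9.13 TPM in inv(3), against 37.8 to 41.3 TPM in Sf3b1 K700E and 31.5 to 34.2 TPM in control. Its log2 change was -2.15 ± 0.13 in inv(3) against control (SE, adjusted p = 7.1e-07). For the double group against Sf3b1 K700E it was -2.72 ± 0.13 (adjusted p = 1e-07).

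Fcer1g (chromosome 1, 171229572 to 171234349, minus strand), the signalling gamma chain that other myeloid cells and natural killer cells also use, had 98.4, 69.8 and 84.8 TPM in double and 132, 102 and 118 TPM in inv(3), against 201, 220 and 210 TPM in Sf3b1 K700E and 200, 197 and 194 TPM in control. All 6 libraries with the inv(3) allele lay below all 6 without it. The log2 change in inv(3) against control was -0.64 ± 0.10 (SE, adjusted p = 0.00052), and that in the double group against Sf3b1 K700E was -1.23 ± 0.10 (adjusted p = 3.9e-06). Between the double and inv(3) groups it was -0.55 ± 0.10 (adjusted p = 0.0046).

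Fcer1a (chromosome 1, 173221269 to 173227232, minus strand), the chain that binds IgE, had 33.4, 18.1 and 35.6 TPM in double and 18.0, 3.22 and 6.26 TPM in inv(3), against 31.4, 31.1 and 39.2 TPM in Sf3b1 K700E and 28.4, 22.2 and 24.8 TPM in control. The inv(3) libraries were the lowest, although the highest of them was level with the lowest double library, and the double libraries spread from below control to within the Sf3b1 K700E range. Its log2 change in inv(3) against control was -1.36 ± 0.47 (SE, adjusted p = 0.040), and that in double against inv(3) was 1.59 ± 0.47 (adjusted p = 0.034). Both calls were weak: 9 of 12 left-out libraries ended the first (adjusted p up to 0.11) and 8 of 12 the second (adjusted p up to 0.099). Without inv(3) replicate 1 the changes were larger, at -2.28 and 2.51. The double group against Sf3b1 K700E differed by -0.14 ± 0.45 (adjusted p = 0.82), with a 95% interval of -1.13 to 0.85, which leaves a change of over 2-fold down possible. Its interaction of 1.22 ± 0.65 did not pass (adjusted p = 0.38), but was 2.14 and passed without inv(3) replicate 1 (adjusted p = 0.031).

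Within a library, the ratio of Fcer1a to Fcer1g in TPM was 0.259 to 0.419 in double and 0.0316 to 0.136 in inv(3), against 0.141 to 0.187 in Sf3b1 K700E and 0.113 to 0.142 in control.

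**Figure D1:**
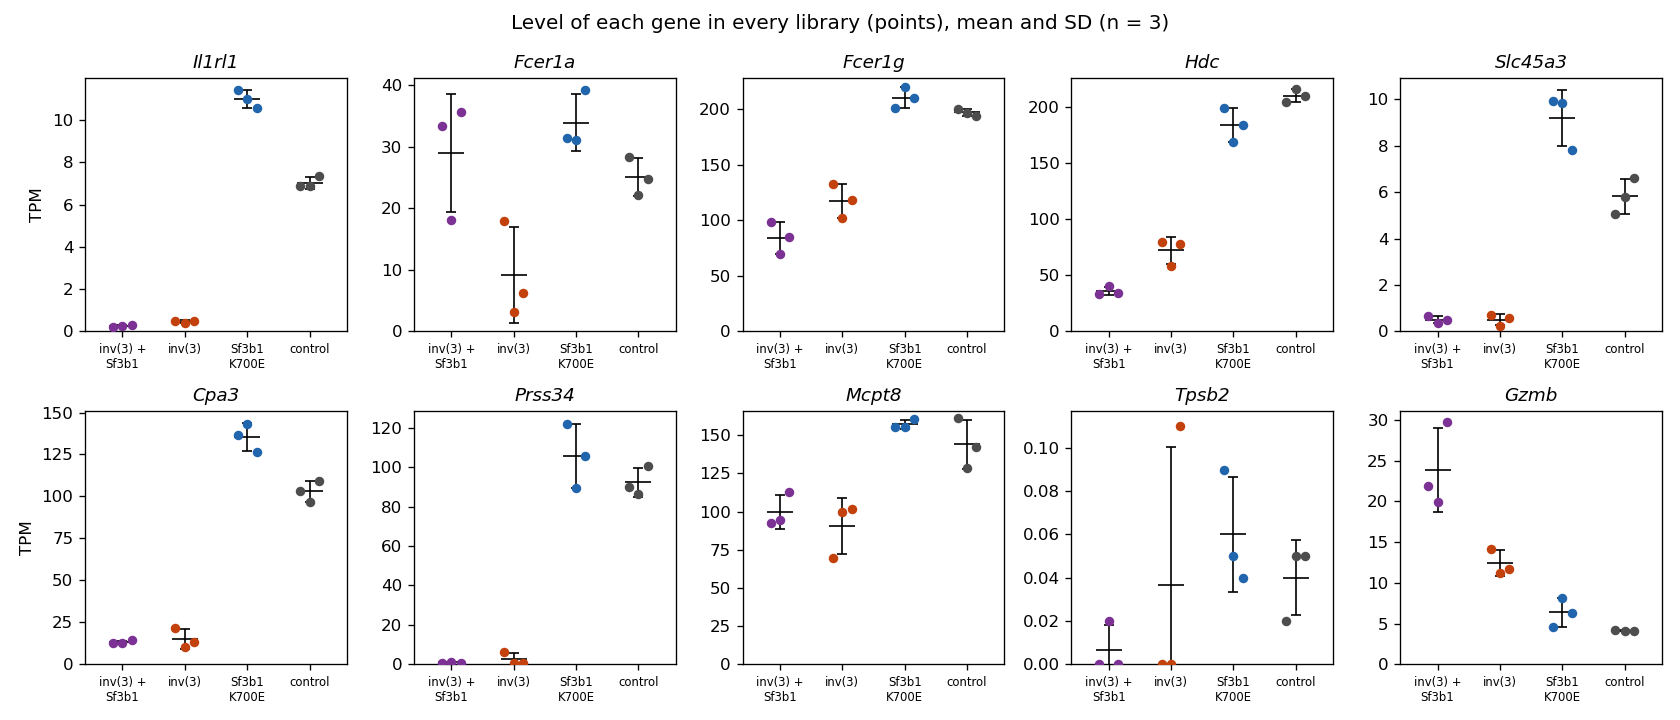
Level in TPM (vertical axes, each from 0) of the 10 genes in every library of the 4 donor genotypes, with points for libraries and bars for mean and SD (n = 3). Il1rl1, Slc45a3 and Prss34 lie near 0 in both groups with inv(3). Cpa3 is low in both, at 10.3 to 21.8 TPM in inv(3) and 12.5 to 14.3 TPM in double. Fcer1a is lowest in inv(3), and Gzmb is highest in the double group, at 19.9 to 29.7 TPM.

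The histamine-forming enzyme gene was lower with inv(3). Hdc (chromosome 2, 126593659 to 126624025, minus strand), which encodes histidine decarboxylase, had 33.45, 40.03 and 33.85 TPM in double and 79.8, 58.6 and 77.5 TPM in inv(3), against 199, 169 and 184 TPM in Sf3b1 K700E and 204, 216 and 209 TPM in control. The groups did not overlap. Hdc fell in inv(3) against control, at -1.43 ± 0.11 (SE, adjusted p = 3.4e-06), and in the double group against Sf3b1 K700E, at -2.27 ± 0.11 (adjusted p = 1.1e-07). It also fell in double against inv(3), at -1.09 ± 0.11 (adjusted p = 0.00035). In Sf3b1 K700E against control its change of -0.25 ± 0.11 did not pass (adjusted p = 0.17). The interaction of -0.84 ± 0.15 passed (adjusted p = 0.032), but 8 of 12 left-out libraries ended that call, with adjusted p up to 0.10. Slc18a2, the transporter that loads histamine into vesicles, was higher in the double group, where Hdc was lowest. It averaged 84.9 ± 18.5 CPM (SD, n = 3) in double, 33.1 ± 5.67 in inv(3), 59.7 ± 6.27 in Sf3b1 K700E and 43.1 ± 4.12 in control, and was higher in double than in inv(3) by 1.36 ± 0.16 (adjusted p = 0.00074) and than in control by 0.98 ± 0.16 (adjusted p = 0.00066).

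Slc45a3 (chromosome 1, 131962915 to 131982972, plus strand), a membrane protein of the sugar-transporter-like SLC45 family, had 0.67, 0.35 and 0.50 TPM in double and 0.69, 0.25 and 0.58 TPM in inv(3), against 9.93, 9.83 and 7.80 TPM in Sf3b1 K700E and 5.07, 5.79 and 6.59 TPM in control. The groups with inv(3) overlapped each other and lay below both others. The log2 change was -3.41 ± 0.29 in inv(3) against control (SE, adjusted p = 8.3e-06) and -4.08 ± 0.30 in double against Sf3b1 K700E (adjusted p = 1.5e-06). Sf3b1 K700E against control was 0.60 ± 0.25 and did not pass (adjusted p = 0.16).

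Among the proteases, Prss34 (chromosome 17, 25298394 to 25300168, plus strand), a basophil serine protease, changed most. It had 0.91, 1.43 and 0.88 TPM in double and 6.24, 0.51 and 0.77 TPM in inv(3), against 122, 89.2 and 106 TPM in Sf3b1 K700E and 89.9, 86.5 and 100 TPM in control. Replicate 1 of inv(3) held 305 expected counts, while replicates 2 and 3 held 25 and 41. The fall in inv(3) against control was -5.11 ± 0.61 log2 units (SE, adjusted p = 1e-04), or 34.6-fold, and without that replicate it was -7.03. Between double and Sf3b1 K700E it was -6.53 ± 0.67 (adjusted p = 2.5e-05), or 92.4-fold lower. The double group differed from inv(3) by -1.28 ± 0.77 (adjusted p = 0.26), a difference that turned to 0.63 without inv(3) replicate 1.

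Cpa3 (chromosome 3, 20215616 to 20242209, minus strand), the carboxypeptidase of mast cell granules, had 12.5, 12.5 and 14.3 TPM in double and 21.8, 10.3 and 13.3 TPM in inv(3), against 137, 143 and 126 TPM in Sf3b1 K700E and 103, 96.9 and 109 TPM in control. It was low in every inv(3)-bearing library, and Sf3b1 K700E lay above control. The change in inv(3) against control was -2.67 ± 0.19 (SE, adjusted p = 3e-06), and in double against Sf3b1 K700E it was -3.28 ± 0.20 (adjusted p = 5.3e-07). The step from control to Sf3b1 K700E of 0.33 ± 0.18 did not pass (adjusted p = 0.27) in the fit of all libraries, and passed when only those 6 libraries were fitted (adjusted p = 0.020). Relative to Kit, which did not pass in any comparison, the Cpa3 level in TPM was 0.0809 to 0.0895 in double and 0.0769 to 0.151 in inv(3), against 0.811 to 0.910 in Sf3b1 K700E and 0.639 to 0.684 in control. In bulk samples, fewer cells of a type and less RNA per cell cannot be told apart.

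Mcpt8 (chromosome 14, 56082163 to 56085499, minus strand), the other basophil protease, moved far less than Prss34. It had 92.7, 94.5 and 113 TPM in double and 69.3, 99.9 and 102 TPM in inv(3), against 155, 155 and 160 TPM in Sf3b1 K700E and 161, 129 and 142 TPM in control. The inv(3)-bearing libraries lay below the rest. Its change was -0.56 ± 0.14 in inv(3) against control (SE, adjusted p = 0.0082) and -0.56 ± 0.14 in double against Sf3b1 K700E (adjusted p = 0.0060). In TPM, the ratio of Prss34 to Mcpt8 was 0.00782 to 0.0151 in double and 0.00511 to 0.0900 in inv(3), against 0.574 to 0.785 in Sf3b1 K700E and 0.558 to 0.707 in control. The pair of basophil proteases thus parted within the same libraries.

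Gzmb (chromosome 14, 56258836 to 56262334, minus strand), granzyme B, a serine protease of cytotoxic lymphocytes that mast cells also store, was the gene of the set that rose with inv(3), in both comparisons that share no library. It had 21.9, 19.9 and 29.7 TPM in double and 14.2, 11.3 and 11.7 TPM in inv(3), against 4.60, 8.20 and 6.33 TPM in Sf3b1 K700E and 4.16, 4.08 and 4.14 TPM in control. The groups did not overlap. The rise was 1.69 ± 0.19 in inv(3) against control (SE, adjusted p = 4.9e-05) and 2 ± 0.19 in double against Sf3b1 K700E (adjusted p = 8.2e-06), which is 4-fold. It was 0.86 ± 0.18 in double against inv(3) (adjusted p = 0.0073) and 2.56 ± 0.20 in double against control (adjusted p = 1.9e-06). Sf3b1 K700E against control, at 0.56 ± 0.19, did not pass (adjusted p = 0.095), although DESeq2 called it (adjusted p = 0.037). The interaction was 0.31 ± 0.27 (adjusted p = 0.62), with a 95% interval of -0.28 to 0.89.

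Tpsb2 (chromosome 17, 25366308 to 25368096, plus strand), a tryptase of mature mast cells, was at the limit of detection. It had 1 expected count in 1 double library and 0 in the others, 5 in 1 inv(3) library and 0 in the others, 2 to 4 in Sf3b1 K700E libraries and 1 or 2 in control libraries. A count of 0 allows up to 3 counts, so no fold is given, and reads shared with the similar tryptase Tpsab1 cannot be assigned with certainty. Of the other markers of mature mast cells, Cma1 had more counts, with 9 in double, 7 in inv(3), 112 in Sf3b1 K700E and 35 in control over 3 libraries, and the rest were near 0. Mrgprb2, a mast cell receptor, had 2 counts in Sf3b1 K700E and 0 in the other groups, summed over 3 libraries. Mcpt4 had 4 counts in double, 3 in inv(3), 4 in Sf3b1 K700E and 1 in control. Tpsab1 had 0 in all groups, but it is listed as a transcribed pseudogene on GRCm38.p6, so its counts say nothing about mature mast cells.

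Counted together, inv(3) against control called 8 of the 9 tested genes lower and 1 higher, where 20.3% of all tested genes were called lower and 18.4% higher (38.7% in all). Their median log2 change was -1.43, against 0.00 over all tested genes. For double against Sf3b1 K700E, 7 were called lower and 1 higher, with 23.5% of all tested genes lower and 25.7% higher (49.2% in all), and the medians were -2.27 and 0.03. These comparisons share no library. For double against control, 7 were lower and 1 higher, against 20.4% and 20.8% of all tested genes (41.1% in all), and Fcer1a was the gene not called, at 0.23 ± 0.45 (SE, adjusted p = 0.72). 

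Sf3b1 K700E against control called 1 of the 9, Il1rl1, where 8.84% of all tested genes were called (3.94% higher and 4.9% lower). The median of the 9 log2 changes was 0.33, against -0.01 over all tested genes. For double against inv(3), 3 were lower (Il1rl1, Fcer1g and Hdc) and 2 higher (Fcer1a and Gzmb), against 9.13% lower and 13.4% higher among all tested genes (22.6% in all). The interaction called 2 of the 9, Il1rl1 and Hdc, both negative, against 0.836% of all tested genes (0.4% positive and 0.436% negative). For Fcer1g it was -0.58 ± 0.15 (adjusted p = 0.090), and DESeq2 called it (adjusted p = 0.006).

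**Figure D2:**
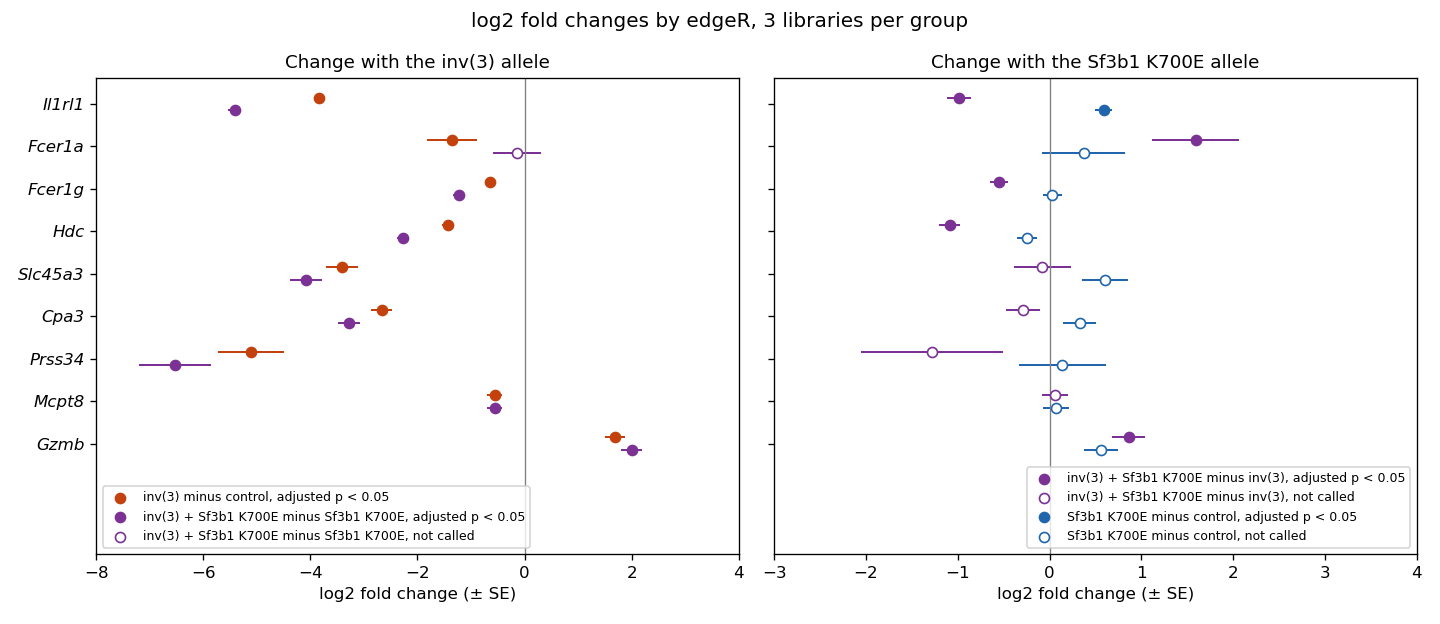
Log2 fold changes by edgeR with standard errors (horizontal axes) for the 9 tested genes, with the change seen with inv(3) on the left and that seen with Sf3b1 K700E on the right. Filled points passed an adjusted p of 0.05, and open points did not. Il1rl1 moves by -5.41 with inv(3) where Sf3b1 K700E is present and by -3.83 where it is not, and Gzmb lies right of 0 in all 4 comparisons.

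The order of the 10 genes by mean TPM also differed between genotypes. In control it ran Hdc, Fcer1g, Mcpt8, Cpa3, Prss34, Fcer1a, Il1rl1, Slc45a3, Gzmb and Tpsb2, with only Cpa3 and Prss34 overlapping as neighbours. In Sf3b1 K700E the order was the same apart from Fcer1g (210 TPM) standing before Hdc (184 TPM), and only Slc45a3 and Gzmb overlapped as neighbours. In inv(3) it ran Fcer1g, Mcpt8, Hdc, Cpa3, Gzmb, Fcer1a, Prss34, Slc45a3, Il1rl1 and Tpsb2, and Mcpt8 overlapped Hdc, while the 6 genes from Cpa3 to Il1rl1 each overlapped the next. In the double group Mcpt8 stood first at 99.9 TPM and overlapped Fcer1g at 84.3 TPM, followed by Hdc, Fcer1a and Gzmb, each overlapping the next, and then Cpa3, Prss34, Slc45a3, Il1rl1 and Tpsb2. Summed over the set, a library held 257 to 312 TPM in double and 286 to 343 TPM in inv(3), against 837 to 871 TPM in Sf3b1 K700E and 764 to 803 TPM in control.

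Replicates of inv(3) varied more in some of these genes than in most others. The SD of log2 CPM in inv(3) was 1.86 for Prss34, larger than in 99.8% of tested genes, and 1.22 for Fcer1a, larger than in 98.6%, where the median of all tested genes was 0.10. In TPM, inv(3) replicate 1 was the highest of the 3 for each tested gene of the set except Mcpt8, which was lowest there. In control the same SD was 0.11 for Prss34 and 0.17 for Fcer1a.

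Outside the set, the wider list of mast cell and basophil genes gave a mixed picture. Of 18 tested surface and cytokine genes, 9 were lower and 3 higher in inv(3) against control, with a median of -0.62, where 20.3% of all tested genes were lower and 18.4% higher, and 8 were lower and 3 higher in the double group against Sf3b1 K700E, with a median of -0.23, where 23.5% of all were lower and 25.7% higher. Ptger3, a prostaglandin E receptor, changed by -2.65 ± 0.17 (SE, adjusted p = 6.8e-07) and -2.95 ± 0.17 (adjusted p = 1.7e-07) in those comparisons. Cysltr1, a leukotriene receptor, changed by -2.11 ± 0.20 (adjusted p = 1.1e-05) and -2.85 ± 0.20 (adjusted p = 8.5e-07). Cd200r3, an activating receptor of basophils and mast cells, went the opposite way. It had 19.4 to 30.2 TPM in double and 8.35 to 17.6 TPM in inv(3), against 1.14 to 1.32 TPM in Sf3b1 K700E and 0.76 to 0.96 TPM in control, a rise of 4.13 ± 0.31 in inv(3) against control (adjusted p = 2.9e-06) and of 4.31 ± 0.30 in double against Sf3b1 K700E (adjusted p = 1e-06). Its inv(3) libraries ranked opposite to Prss34, with replicate 1 lowest.

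Of 20 tested genes of IgE receptor signalling, 9 were higher and 6 lower in inv(3) against control, with a median of 0.04, where 38.7% of all tested genes were called, and 9 were higher and 7 lower in double against Sf3b1 K700E, with a median of 0.15, where 49.2% of all were called. The adaptor gene Lat changed by -2.02 ± 0.21 in inv(3) against control (SE, adjusted p = 2.1e-05), whereas the related adaptor Lat2 rose by 0.65 ± 0.10 (adjusted p = 3e-04). For double against Sf3b1 K700E, Lat changed by -2.28 ± 0.20 (adjusted p = 4.4e-06), Lat2 by 1.01 ± 0.10 (adjusted p = 7.5e-06) and Grap2, which links LAT to SLP-76, by -2.85 ± 0.22 (adjusted p = 1.6e-06).

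Downstream of ST2 the changes were small. Of 11 tested genes of IL-33 receptor signalling, 4 were higher and 2 lower in inv(3) against control (median 0.08, with 38.7% of all tested genes called), and 5 were higher and 1 lower in double against Sf3b1 K700E (median 0.21, with 49.2% of all called). The kinase gene Irak2 rose by 0.50 ± 0.05 (SE, adjusted p = 2.7e-05) and 0.62 ± 0.05 (adjusted p = 3.3e-06). Il1rap, the partner chain of ST2, averaged 42.7 ± 5.93 CPM (SD, n = 3) in double, 55.1 ± 2.22 in inv(3), 41.7 ± 2.69 in Sf3b1 K700E and 52.2 ± 6.05 in control, far less range than Il1rl1. The ligand gene Il33 had 3 counts or fewer per group.

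Transcription factors of the lineage were called in both directions. Of 16 tested, 7 were lower and 4 higher in inv(3) against control (median -0.06, with 20.3% of all tested genes lower and 18.4% higher), and 6 were lower and 5 higher in double against Sf3b1 K700E (median -0.11, with 23.5% of all lower and 25.7% higher). Gata1 had 7.02 to 15.5 TPM in double and 5.97 to 9.37 TPM in inv(3), against 36.2 to 45.5 TPM in Sf3b1 K700E and 26.6 to 31.2 TPM in control. Its change was -1.83 ± 0.24 in inv(3) against control (SE, adjusted p = 0.00017) and -1.80 ± 0.24 in double against Sf3b1 K700E (adjusted p = 0.00011). Gata2 had 37.2 to 61.3 TPM in double and 27.7 to 28.5 TPM in inv(3), against 55.2 to 74.3 TPM in Sf3b1 K700E and 35.6 to 49.5 TPM in control, and its change was -0.54 ± 0.17 in inv(3) against control (adjusted p = 0.029) and 0.76 ± 0.17 in double against inv(3) (adjusted p = 0.011). Mitf, a factor of mast cells, rose in double against Sf3b1 K700E by 0.55 ± 0.07 (adjusted p = 7.4e-05).

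**Figure D3:**
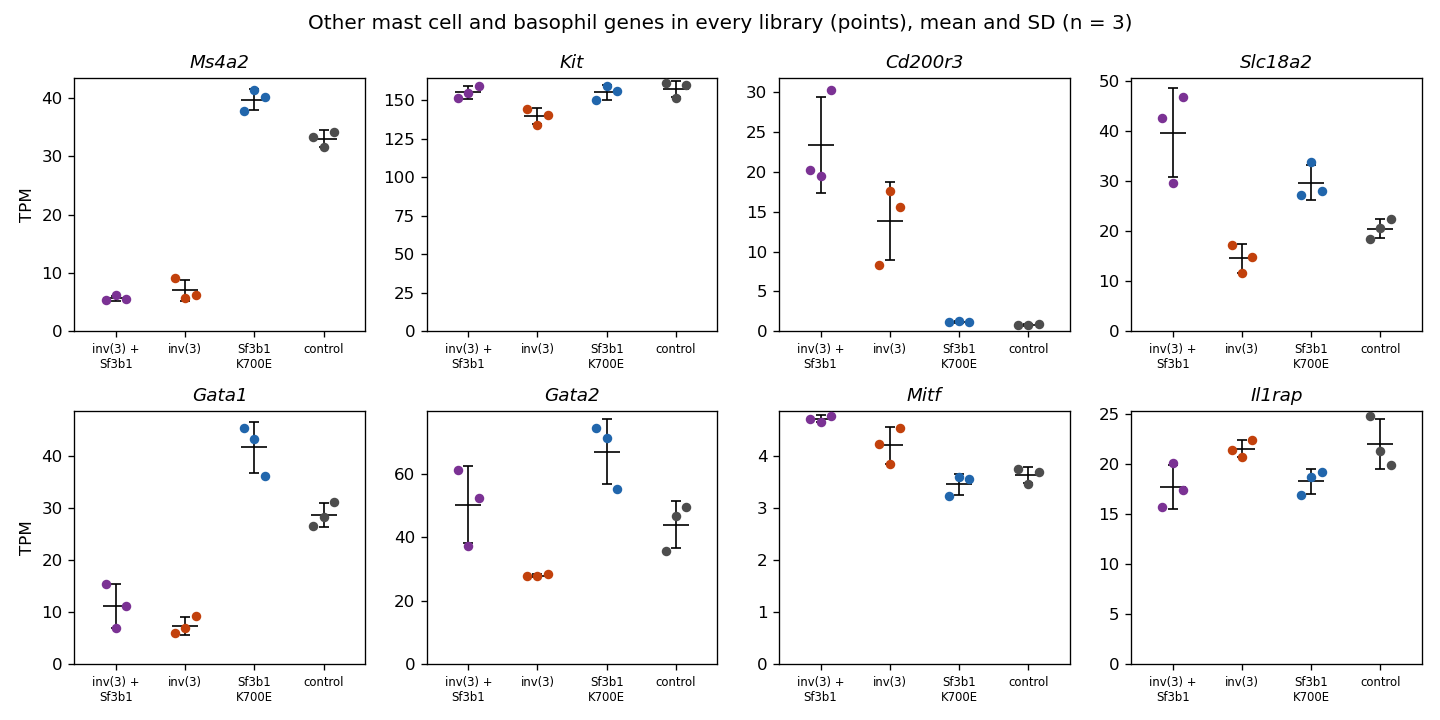
Level in TPM (vertical axes, each from 0) of 8 related genes outside the set in every library, with points for libraries and bars for mean and SD (n = 3). Ms4a2 and Gata1 are low in both groups with inv(3), Cd200r3 is high in both, and Kit lies between 133.9 and 161.0 TPM in every library.

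Neighbouring genes of the set were also read. Il1rl1 lies in a cluster of interleukin receptor genes on chromosome 1, and its neighbours there changed less. Il1rl2, 80.3 kb before it, changed by -1.01 ± 0.14 in inv(3) against control (SE, adjusted p = 2e-04), and Il1r1 by -1.21 ± 0.22 (adjusted p = 0.0012). Il18r1, 60.7 kb after it, and Il18rap did not pass (0.25 ± 0.35 and 0.03 ± 0.12, adjusted p = 0.61 and 0.88).

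On chromosome 14, Mcpt8 and Gzmb lie 176.7 kb apart in one granule protease cluster and changed in opposite directions. Ctsg, the neutrophil cathepsin G gene 17.7 kb from Mcpt8, did not pass in inv(3) against control (0.09 ± 0.09, SE, adjusted p = 0.44). Gzmc, the granzyme gene nearest to Gzmb on the list, had 17 counts in double, 4 in inv(3), 1 in Sf3b1 K700E and 0 in control, summed over 3 libraries. On chromosome 17, the tryptase-like gene Prss28, between Prss34 and Tpsb2, had 0 counts in double, 1 in inv(3), 29 in Sf3b1 K700E and 29 in control, and Prss29 and Tpsg1 had 0 in every group. Both tested neighbours of that cluster, Prss28 and the more distant Prss30, were called lower in inv(3) against control and in double against Sf3b1 K700E, as Prss34 was. Prss30 had 12 counts in double, 30 in inv(3), 82 in Sf3b1 K700E and 73 in control. Next to Cpa3 on chromosome 3, the glycogenin gene Gyg changed by 0.27 ± 0.08 in inv(3) against control (SE, adjusted p = 0.023), and Cpb1 and Agtr1b had 1 count or fewer per group. These genes belong to families with similar sequences, and shared reads between copies cannot be assigned with certainty.

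**Figure D4:**
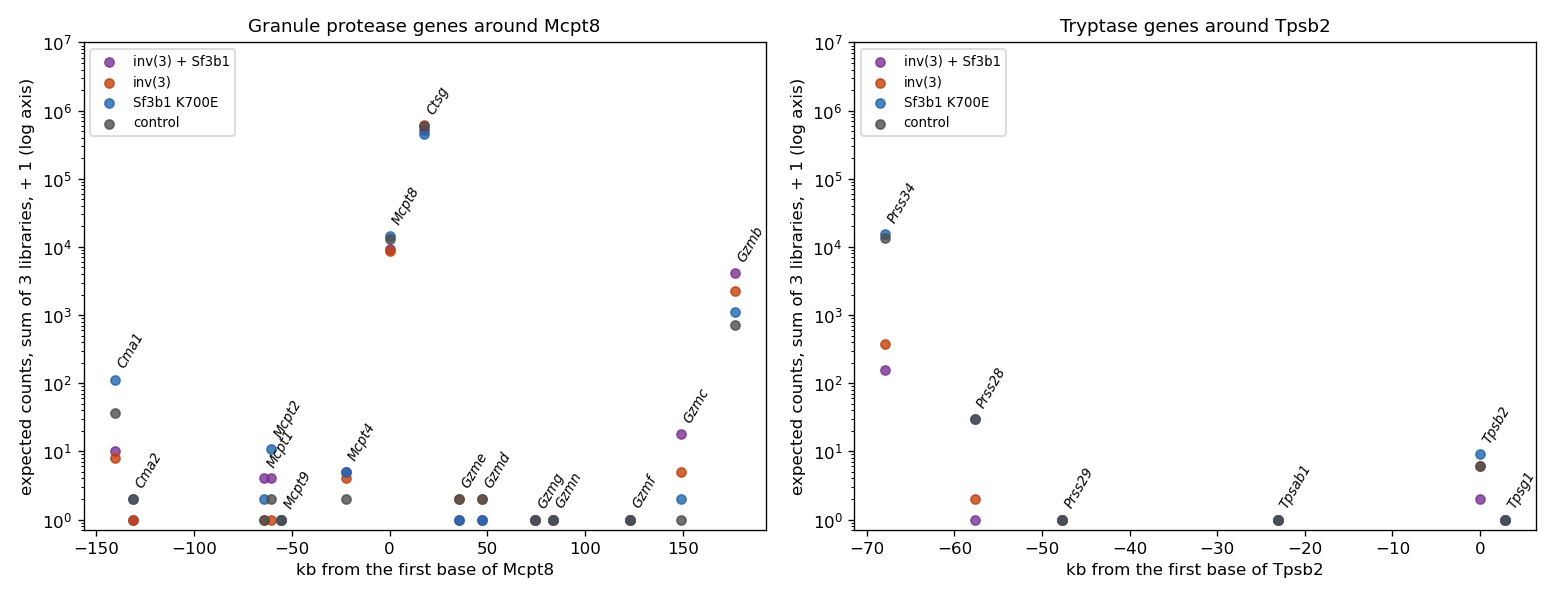
Expected counts plus 1, summed over 3 libraries (vertical log axes), for genes of 2 protease clusters against their distance in kb from the lower-coordinate end of Mcpt8 or Tpsb2 (horizontal axes), coloured by genotype. Ctsg, Mcpt8, Gzmb and Prss34 stand high, with Gzmb at 4140 counts in the double group, while the granzymes between Ctsg and Gzmb lie at or near 0.

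Likeness of profiles was taken as the root mean square difference of centred log2 CPM over the 12 libraries. The genes most like those of the set were sought among the other tested genes, leaving out predicted, clone and pseudogene names. For Il1rl1 they were Cnn3 (0.24 log2 units), Ear1 (0.37) and Cttn (0.37). Cnn3, a calponin, averaged 0.753 CPM in double, 1.34 in inv(3), 24.3 in Sf3b1 K700E and 21.6 in control. For Gzmb they included Abhd6 (0.17) and Unc13b (0.23), and for Cpa3 they were F2rl2 (0.19), Mrvi1 (0.22) and Homer2 (0.25). Slc45a3 was nearest to Pcgf2 (0.21), Sdpr (0.22) and Treml1 (0.24), and Hdc to Atp1b1 (0.21), Cd180 (0.23) and Fkbp1b (0.26). Prss34, which had the widest range of log2 CPM of the tested genes of the set (7.61), was nearest to Tmem184c (0.44). The measure is not scaled to the range of a gene, so it tends to be larger for genes that vary more. By this measure the nearest pairs within the set were Fcer1g with Mcpt8 (0.38) and Cpa3 with Slc45a3 (0.49). The farthest was Prss34 with Gzmb (4.13). Fcer1g and Mcpt8 also had the narrowest ranges of the tested genes of the set (1.52 and 1.13), so their small difference partly reflects small changes. The 12 libraries share a split by inv(3), which any gene with such a split will follow.

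Markers of other cells moved beside these genes, and their part in the results was not tested. Of 13 natural killer and T cell markers, 6 were tested. In inv(3) against control 3 were lower and the other 3 did not pass, where 20.3% of all tested genes were lower. The summed level of the 13 was 308 to 434 CPM in double and 430 to 506 in inv(3), against 363 to 419 in Sf3b1 K700E and 466 to 523 in control, most of it from Nkg7. Of the untested markers, named after their values were seen, Cd3e and Ncr1 had 1 and 0 counts in double and 2 and 1 in inv(3), summed over 3 libraries, against 13 and 12 in Sf3b1 K700E and 0 and 15 in control. Tbx21 had 13 counts in double, 15 in inv(3), 10 in Sf3b1 K700E and 4 in control. In the same order Cd3d had 9, 5, 17 and 5, Eomes 4, 7, 12 and 4, and Cd3g 0, 2, 11 and 3. These counts are near the limit of detection and do not all move alike. Gzmb had 4140 counts in double and 2218 in inv(3), against 1094 in Sf3b1 K700E and 706 in control. Klrk1, a receptor of these lymphocytes, changed by -2.80 ± 0.19 in inv(3) against control (SE, adjusted p = 1.4e-06), opposite to Gzmb. Gzma and Cd8a had 2 and 92 counts in double and 19 and 158 in inv(3), against 2 and 118 in Sf3b1 K700E and 2 and 53 in control, and Cd8a did not pass in inv(3) against control (1.64 ± 0.65, adjusted p = 0.066).

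Macrophage markers, relevant to Fcer1g, summed to 67.0 to 87.1 CPM in double and 82.9 to 126 in inv(3), against 449 to 607 in Sf3b1 K700E and 341 to 430 in control. Vcam1 is the largest part of these sums. In double against Sf3b1 K700E 10 of 10 were lower, where 23.5% of all tested genes were lower. In inv(3) against control 7 of 10 were lower and 1 higher, where 20.3% of all tested genes were lower and 18.4% higher. In Sf3b1 K700E against control 8 of 10 were higher, where 3.94% of all tested genes were higher. Their median log2 change there was 2.02, and the median interaction was -2.05. Mature neutrophil markers went the other way with inv(3), at 2800 to 4020 CPM in double and 4720 to 5820 in inv(3), against 1200 to 2250 in Sf3b1 K700E and 1430 to 2110 in control. S100a8 and S100a9 are the largest part of these sums. In inv(3) against control 8 of the 11 neutrophil markers were higher and 1 lower, where 18.4% of all tested genes were higher and 20.3% lower. Eosinophil markers summed to 310 to 319 CPM in double and 386 to 515 in inv(3), against 608 to 786 in Sf3b1 K700E and 628 to 767 in control. Prg2 is the largest part of the eosinophil sums. In inv(3) against control 6 of the 9 eosinophil markers were lower and 1 higher, where 20.3% of all tested genes were lower and 18.4% higher. In double against Sf3b1 K700E 7 were lower and 0 higher, where 23.5% of all tested genes were lower and 25.7% higher. Siglecf averaged 142 CPM in inv(3) against 70.8 in control. Type 2 innate lymphoid cells also carry ST2. Of their 8 markers 4 were tested, and in inv(3) against control Thy1 was higher (3.14 ± 0.26, SE, adjusted p = 6.2e-06) and Rora lower (-2.63 ± 0.28, adjusted p = 2.8e-05). Il5 and Il13 had 12 counts or fewer per group, and Gata3 had 36 in double, 107 in inv(3), 473 in Sf3b1 K700E and 312 in control. Of the 10 stem and progenitor markers of the gate, 6 were lower and 2 higher in inv(3) against control, where 20.3% of all tested genes were lower and 18.4% higher. In double against Sf3b1 K700E 5 were lower and 2 higher, where 23.5% of all tested genes were lower and 25.7% higher. The 7 lineage antigen genes listed in the tables summed to 547 to 633 CPM in double and 601 to 643 in inv(3), against 335 to 431 in Sf3b1 K700E and 416 to 482 in control. Nearly all of this came from Itgam, at 357 CPM in inv(3) and 183 in control, and Ptprc, at 270 and 259. Of the 5 tested, 1 was higher and 2 lower in inv(3) against control, where 18.4% of all tested genes were higher and 20.3% lower.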

How the data were processed

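The 12 RNA-seq libraries are unstranded and poly(A)-selected, per the labels' protocols. Per the file headers the deposited tables are RSEM output with expected counts, TPM, and length and effective length in bases per gene. The expected counts deposited by the authors are estimated fragments per gene with no scaling applied. The deposited TPM values served for levels and not for tests, and the deposited lengths are in bases. Both bcl2fastq and the mm10 build are listed in the submitters' processing notes. Which aligner was run is not given in the sources used.

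Counts were rounded and filterByExpr kept 13755 of 24411 genes. After TMM scaling, 1 robust quasi-likelihood model with 4 group means was run in edgeR 4.0.16 under R 4.3.3. P-values are two-sided, adjusted by Benjamini-Hochberg over all tested genes, with 0.05 as the limit. CPM are counts scaled to the TMM-adjusted library size. Standard errors come from the F statistic, and 95% intervals from the same test. In simulated data for inv(3) against control with 13472 genes, 92.3% of genes changed by -2 on the log2 scale were recovered, 79.5% by -1, 55% by -0.5, 47.5% by 0.5 and 90% by 1, with 5 unchanged genes called. Each share rests on 39 or 40 genes. The simulation changed 200 genes and left the others at control means, whereas 38.7% of all tested genes were called in the data. The shares are therefore not the recovery rate of the data.

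The genes and lists were chosen with earlier results of these data known. Named genes are all 10 of the set, up to 5 genes of each list and comparison with the smallest p, any measured gene of the neighbourhoods, and the 3 nearest profiles per gene, of which 1 is not reported here; untested defining markers of a cell type are named for their counts, chosen after their values were seen. Positions and promoters come from RefSeq on GRCm38.p6, with GENCODE for transcript lengths. The alternatives were DESeq2 1.42.0, RLE scaling, no low-count filter or one at a mean of 5 CPM, offsets for effective length, a replicate block, fits of only the groups compared, and leaving out each library. Replicates of a group differed beyond counting noise, so all 12 were kept.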

Additional observations from a re-analysis of the deposited data

Results flagged for a closer look

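The change with inv(3) differed by Sf3b1 status in 2 genes, by the interaction term of the edgeR fit. For Il1rl1 the log2 change with inv(3) was -5.41 where Sf3b1 K700E was present and -3.83 where it was absent, a difference of -1.57 ± 0.16 (SE, adjusted p = 0.00061). It passed with each of the 12 libraries left out, from -1.69 to -1.49. For Hdc the corresponding changes were -2.27 and -1.43, a difference of -0.84 ± 0.15 (SE, adjusted p = 0.032). That call ended with 8 of the 12 libraries left out and with the replicate number as a block (adjusted p = 0.076). The inv(3) group, which enters both differences, is also the one without Y-linked RNA, and genotype and this difference cannot be told apart.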

How the results depend on the processing

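Of 1017 values of the 9 tested genes under alternatives, 959 kept their direction and their side of the threshold, 32 lost a call, 9 gained one and 17 changed sign, none of these being called in the fit of all libraries. The losses fell on Fcer1a (inv(3) against control and double against inv(3)), the Hdc interaction, and Mcpt8 in double against control (adjusted p up to 0.058). Without a low-count filter the Fcer1a calls ended (adjusted p = 0.082 and 0.072), as they did with the compared groups alone (0.096 and 0.11). With libraries left out, the values that changed sign ranged from -0.31 to 0.10 for Fcer1a in double against Sf3b1 K700E. In double against inv(3) they ranged from -0.49 to 0.05 for Cpa3, -1.75 to 0.63 for Prss34, -0.11 to 0.16 for Mcpt8 and -0.39 to 0.18 for Slc45a3. For Mcpt8 in Sf3b1 K700E against control they ranged from -0.01 to 0.15, and for the interactions of Prss34 and Mcpt8 from -1.88 to 0.49 and -0.17 to 0.09.

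Of the 9 genes, Sf3b1 K700E against control called 1 in the fit of all libraries, 2 by DESeq2, 3 with the compared groups alone and 1 to 2 with a library left out. The interaction called 2, and 1 to 3 with a library left out. Over all genes, Sf3b1 K700E against control called 1216, with 1881 by DESeq2, 654 under the replicate block and 168 to 1649 with a library left out. The interaction called 115, with 622 by DESeq2, 60 under the replicate block and 32 to 323 with a library left out. Double against inv(3) called 3103, with 1954 for the compared groups alone and 1566 to 3342 with a library left out. The cause of these shifts was not tested.

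Replicate numbers did not pair the samples: of 18 pairs with the same number in different groups, 3 had deviations correlated above 0.1. Under the replicate block the interaction called 1 gene of the set, Il1rl1, and the Mcpt8 interaction was 0.01 in place of 0.00. Low counts limit Tpsb2 and the other mature mast cell genes.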

Other observations

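Of 21 tested genes of granules, histamine handling and lipid mediators, 7 were higher and 4 lower in inv(3) against control, with a median of 0.12, where 38.7% of all tested genes were called, and 13 were higher and 4 lower in double against Sf3b1 K700E, with a median of 0.27, where 25.7% of all were higher and 23.5% lower. Hpgds, the prostaglandin D synthase of mast cells, changed by -1.95 ± 0.35 (SE, adjusted p = 0.00099) and -3.88 ± 0.35 (adjusted p = 5.4e-06) by edgeR in those comparisons, and in Sf3b1 K700E against control it rose by 1.63 ± 0.30 (adjusted p = 0.010). Aoc1, a diamine oxidase that breaks down histamine, rose by 3.01 ± 0.32 (adjusted p = 2.9e-05) and 2.21 ± 0.31 (adjusted p = 0.00011). Rab27b, which moves granules in mast cells, changed by -2.35 ± 0.28 (adjusted p = 8e-05) and -2.30 ± 0.28 (adjusted p = 4.9e-05), whereas the related Rab27a rose by 0.31 ± 0.06 (adjusted p = 0.00099) and 0.38 ± 0.06 (adjusted p = 0.00017).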
